A study of Homo sapiens with 9 samples.

Results

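The clustered protocadherin genes were read in RNA-seq data of 3 human breast epithelial cell lines. They were the rows of the gene count table whose symbol is PCDHA, PCDHAC, PCDHB, PCDHGA, PCDHGB or PCDHGC followed by a number. This rule gave 54 of the 62666 genes listed, with 16 members in the alpha cluster, 16 in the beta cluster and 22 in the gamma cluster. Polyadenylated RNA was sequenced from 3 libraries of each line, 9 in all, and the series set out to ask how transcript levels shift as breast cells advance towards cancer. MCF10A is an immortalised, non-tumorigenic mammary epithelial line. MCF10AT1 is a derivative of MCF10A that carries activated HRAS and forms premalignant lesions in mice, and MCF10Ca1a is a malignant derivative isolated after passage of such lesions. No line was given a drug or other treatment. All lines were grown in DMEM/F12 with insulin, epidermal growth factor, hydrocortisone and cholera toxin, with 5% horse serum for MCF10A and MCF10Ca1a and 2.5% for MCF10AT1, so line and serum cannot be told apart for MCF10AT1. Each group is a single line, and nothing in the labels says that its libraries came from separate cultures, so p-values measure the spread between these libraries, which may be technical.

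Clustered protocadherins are cell surface proteins with cadherin repeats that bind the same isoform on a neighbouring cell. In neurons, each cell uses a small set of them as a surface identity code. A promoter lies in front of each variable first exon, and promoter choice is tied to CTCF and cohesin looping and to DNA methylation. In the alpha and gamma clusters the variable exon is spliced to constant exons that encode a shared cytoplasmic end, while each beta gene is a single coding exon. The C-type members, PCDHAC1, PCDHAC2, PCDHGC3, PCDHGC4 and PCDHGC5, lie at the 3′ ends of their clusters and are used more evenly across neurons than the others.

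The clusters lie in order on the plus strand of chromosome 5 (GRCh38, GENCODE 29), alpha from 140786136 to 141012347, beta from 141051135 to 141249365 and gamma from 141330571 to 141512981. The alpha constant exons, 3 exons with 2866 bases, are annotated in 15 genes, all alpha members but the pseudogene PCDHA14. The gamma constant exons, 3 exons with 2181 bases, are annotated in all 22 gamma genes. Of the stretches of 31 bases in a member's annotated transcripts, the share found in that gene alone had a median of 44.0% in the alpha, 77.25% in the beta and 54.9% in the gamma cluster. Reads from the constant exons cannot be assigned to a single member from their sequence, so single alpha and gamma values are uncertain, and summed counts over a cluster do not depend on that split, while summed TPM does.

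The promoters of 8 members are shown as examples, chosen with their values known. Other members, PCDHGA12 and PCDHB5 among them, also differed strongly between the lines and are not shown. PCDHA4, PCDHA12 and PCDHB9 were highest in MCF10Ca1a, PCDHAC1, PCDHAC2, PCDHB16 and PCDHGB5 were highest in MCF10A, and PCDHGC3 was the most abundant member. The sequences are RefSeq's on GRCh38.p14, 5′ to 3′ on the plus strand, from 110 bases before the first annotated start to 10 bases after it. They lie at chr5:140806958-140807077 (PCDHA4), chr5:140875198-140875317 (PCDHA12), chr5:140926189-140926308 (PCDHAC1), chr5:140966366-140966485 (PCDHAC2), chr5:141187051-141187170 (PCDHB9), chr5:141182277-141182396 (PCDHB16), chr5:141397837-141397956 (PCDHGB5) and chr5:141475856-141475975 (PCDHGC3). Capitals mark each CGCT, letters that form the core of the conserved box known in most of these promoters. A marked CGCT need not be that box.

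PCDHA4: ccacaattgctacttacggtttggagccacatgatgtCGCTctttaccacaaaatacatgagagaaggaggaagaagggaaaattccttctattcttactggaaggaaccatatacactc
PCDHA12: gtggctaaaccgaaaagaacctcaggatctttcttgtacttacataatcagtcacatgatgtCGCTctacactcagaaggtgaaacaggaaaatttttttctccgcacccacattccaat
PCDHAC1: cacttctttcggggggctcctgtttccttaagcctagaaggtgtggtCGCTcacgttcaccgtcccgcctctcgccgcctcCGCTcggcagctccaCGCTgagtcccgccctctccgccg
PCDHAC2: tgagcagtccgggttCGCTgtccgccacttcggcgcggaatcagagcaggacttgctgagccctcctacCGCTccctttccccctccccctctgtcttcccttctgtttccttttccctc
PCDHB9: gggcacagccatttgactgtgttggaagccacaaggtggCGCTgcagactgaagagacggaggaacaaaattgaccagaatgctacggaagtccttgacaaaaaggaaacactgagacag
PCDHB16: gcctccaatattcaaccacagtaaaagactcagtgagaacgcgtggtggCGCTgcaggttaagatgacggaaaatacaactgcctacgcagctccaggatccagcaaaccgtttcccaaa
PCDHGB5: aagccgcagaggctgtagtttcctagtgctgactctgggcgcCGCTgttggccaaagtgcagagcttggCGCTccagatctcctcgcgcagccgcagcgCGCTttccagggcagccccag
PCDHGC3: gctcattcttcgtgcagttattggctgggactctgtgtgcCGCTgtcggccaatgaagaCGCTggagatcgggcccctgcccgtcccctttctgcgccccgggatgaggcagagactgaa

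RefSeq promoters were matched for 47 of the 54 members. CGCT on the gene's strand between 110 and 20 bases before the start, a window chosen after its positions were seen, was present in 43 of these 47 (91.5%), against 7105 of all 27305 promoters (26.0%). Searched over the whole 300 bases on both strands, it was present in 46 of 47 members (97.9%) and in 69.4% of all promoters. Longer forms, chosen after the promoters were read and searched on both strands over the 300 bases, differed between clusters. The letters GATGTCGCT, which contain CGCT and occur in the printed PCDHA4 and PCDHA12 promoters, were present in 9 of 13 alpha promoters (69.2%), in 0 beta and 0 gamma promoters and in 0.103% of all promoters. The letters GGCGCTGCA, as in PCDHB9 and PCDHB16, were present in 10 of 14 beta promoters (71.4%), in 0 of the other clusters and in 0.732% of all. CGCTGTNGG, as in PCDHGB5 and PCDHGC3, was present in 5 of 20 gamma promoters (25.0%), in 0 of the other clusters and in 1.03% of all. Among the printed windows, the alpha promoters of PCDHA4 and PCDHA12 had a GC content of 41.7% and 40.8%, and those of the C-type members PCDHAC1, PCDHAC2 and PCDHGC3 had 66.7%, 61.7% and 61.7%. PCDHGB5, which is not a C-type member, had 65.0%, and PCDHB9 and PCDHB16 had 50% each. Each printed promoter holds a CGCT, while the same stretch of PCDHGB2, which is not printed and was higher in both derivatives, holds 0. These matches describe letters and were not tested as binding sites.

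Library totals ran from 62.9 to 69.5 M counts in MCF10A and MCF10AT1 and from 32.9 to 35.2 M in MCF10Ca1a, so a low member was harder to count in MCF10Ca1a. Epithelial markers were present, with 8 of 9 at 1 TPM or more in the MCF10A libraries, 8 in MCF10AT1 and 9 in MCF10Ca1a, and a summed level between 2390 and 4120 TPM. Of 11 neuronal markers, 8, 7 and 6 were at or under 3 counts in all libraries of MCF10A, MCF10AT1 and MCF10Ca1a. The list's summed level was 98.1 to 128 TPM in MCF10A, 34.8 to 39.6 in MCF10AT1 and 91.1 to 96.8 in MCF10Ca1a, and TUBB3 made up most of it. Fibroblast markers were at or under 3 counts for 4, 2 and 4 of 6 (6.39 to 7.18, 27.6 to 31.5 and 1.89 to 2.29 TPM), endothelial markers for 2, 2 and 3 of 4 (0.674 to 0.901, 0.868 to 1.32 and 15.6 to 20.8 TPM), and immune markers for 2 of 3 in each line (8.33 to 13.0, 2.65 to 2.68 and 30.2 to 33.0 TPM). Among the defining markers, STMN2 and CD3E were at 0 counts in all 9 libraries, and RBFOX3, ELAVL4, CDH5 and PTPRC stayed at or under 2. Others were above the floor, first given for the line where each was highest. SNAP25 had 33 to 48 counts in MCF10Ca1a, SYT1 264 to 355 in MCF10AT1 and MAP2 211 to 267 in MCF10AT1. DCN had 1891 to 2072 in MCF10AT1, PECAM1 1415 to 1751 in MCF10Ca1a and CD68 1366 to 1572 in MCF10Ca1a. In MCF10A DCN had 251 to 332 counts and CD68 868.8 to 1088.5. Other markers of these lists ran differently. COL1A1 had 536 to 642 counts in MCF10A, 203 to 228 in MCF10AT1 and 169 to 195 in MCF10Ca1a. KDR had 30 to 42, 23 to 32 and 0 to 1 in that order. The part of these markers in the results was not tested. Lower counts can reflect fewer expressing cells or less RNA per cell, which bulk libraries cannot tell apart.

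Most members were low. CPM, counts scaled to library size with TMM factors, is used for comparisons of a gene between lines, and TPM, which is per length, for comparisons between genes. PCDHA2, PCDHA3 and the annotated pseudogene PCDHA14 were at 0 counts in all 9 libraries, and 8 members (6 alpha, 1 beta and 1 gamma) stayed at or under 3 counts, after rounding, throughout. By the same measure, at or under 3 counts in all 3 libraries of a line were 11 members in the MCF10A libraries, 14 in MCF10AT1 and 22 in MCF10Ca1a. With every library scaled to the smallest total these numbers were 17, 26 and 22, so the order of the lines depended on depth. Members with at least 10 counts in all 3 libraries numbered 20, 22 and 15. The other 7 rows of the locus, pseudogenes and antisense genes, reached at most 3 counts.

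**Figure D1:**
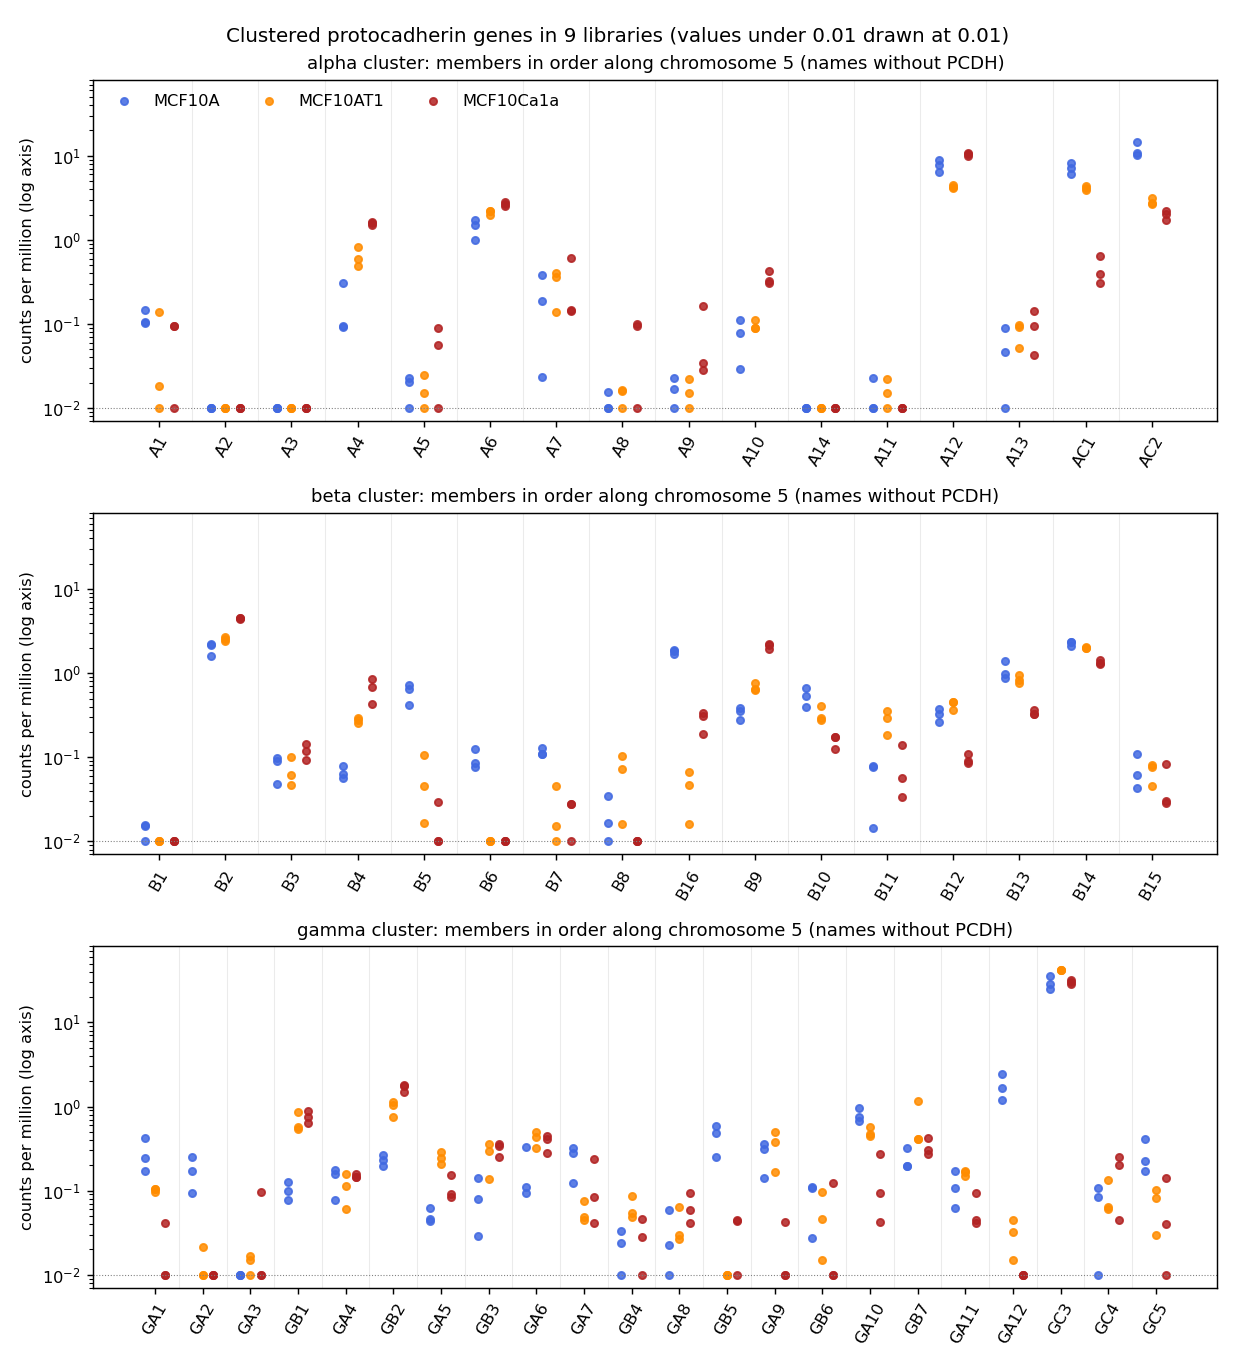
Level of all 54 members in the 9 libraries, on a log axis of CPM (counts scaled to library size), in order along chromosome 5 and coloured by line, with values under 0.01 drawn at 0.01. PCDHA12, PCDHAC1 and PCDHAC2 lead the alpha cluster in MCF10A and MCF10AT1, while in MCF10Ca1a PCDHA12 leads and PCDHA6 lies above PCDHAC1 and PCDHAC2. PCDHGC3, at 24.6 to 42.2, stands far above every other gamma member.

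On summed CPM, the alpha cluster was highest in MCF10A and the gamma cluster in MCF10AT1, while the beta cluster was lowest in MCF10AT1. Summed alpha CPM was 34.2, 27.4 and 24.8 in the MCF10A libraries, 14.35, 15.04 and 14.56 in MCF10AT1 and 18.1, 18.7 and 17.5 in MCF10Ca1a. The 3 lines did not overlap, and the log2 ratio of the line means was -0.97 for MCF10AT1 against MCF10A, -0.67 for MCF10Ca1a against MCF10A and 0.30 for MCF10Ca1a against MCF10AT1. Summed beta CPM was 9.47 ± 1.16 (SD, n = 3) in MCF10A, 7.70 ± 0.045 in MCF10AT1 and 9.74 ± 0.502 in MCF10Ca1a, and MCF10A and MCF10Ca1a overlapped. Summed gamma CPM was 41.4, 33.6 and 29.9 in the MCF10A libraries, 47.0, 46.6 and 47.2 in MCF10AT1 and 33.4, 35.0 and 36.3 in MCF10Ca1a. On CPM, MCF10AT1 lay above both other lines, which overlapped each other. On summed TPM MCF10A replicate 1, at 12.25, lay within the range of MCF10AT1, 11.35 to 12.61. MCF10A replicate 1 had the highest sum of its line in all 3 clusters. With 3 libraries against 3, an exact permutation test cannot go below p = 0.10, and the sums are given without a test. Their size changed with the unit: on summed TPM the alpha ratio of MCF10Ca1a to MCF10AT1 was 0.90 and the beta ratio 0.79, and the beta ratio of MCF10Ca1a to MCF10A was 0.30 against 0.041 on CPM.

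Within the alpha and gamma clusters, the summed levels of the types of gene differed. Types of the same cluster share its constant exons. Unlike cluster sums, sums by type therefore depend on how the reads of those exons were split between members. The C-type alpha genes PCDHAC1 and PCDHAC2 together had 22.7, 17.5 and 16.9 CPM in the MCF10A libraries, 6.57, 7.17 and 7.31 in MCF10AT1 and 2.13, 2.65 and 2.53 in MCF10Ca1a. The other alpha genes together had 11.4, 9.90 and 7.95, then 7.78, 7.88 and 7.26, then 16, 16.01 and 14.96. The C-type sum thus stepped down from line to line without overlap, while the sum of PCDHA1 to PCDHA14 was highest in MCF10Ca1a. The log2 ratio of MCF10Ca1a to MCF10A was -2.96 for the C-type pair and 0.68 for the others. On summed TPM that of the pair was -1.56, with length-scaled counts -1.755 and with scaled counts -1.703. For the C-type pair against MCF10AT1 the ratio was -1.52 on CPM, 0.29 on summed TPM and 0.0043 with the deposited scaled counts, which turned its direction. In the gamma cluster, PCDHGA genes together had 4.02 ± 0.745 CPM (SD, n = 3) in MCF10A, 2.03 ± 0.0609 in MCF10AT1 and 1.08 ± 0.311 in MCF10Ca1a. Without PCDHGA12, left out after its values were seen, the other 11 PCDHGA genes had 2.27 ± 0.343, 1.99 ± 0.0464 and 1.08 ± 0.311 CPM, and the MCF10A and MCF10AT1 libraries overlapped. PCDHGB genes ran the other way, with 1.20 ± 0.129, 2.68 ± 0.397 and 3.18 ± 0.0651 CPM. The log2 ratio of MCF10Ca1a to MCF10A was -1.89 for PCDHGA and 1.41 for PCDHGB genes.

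**Figure D2:**
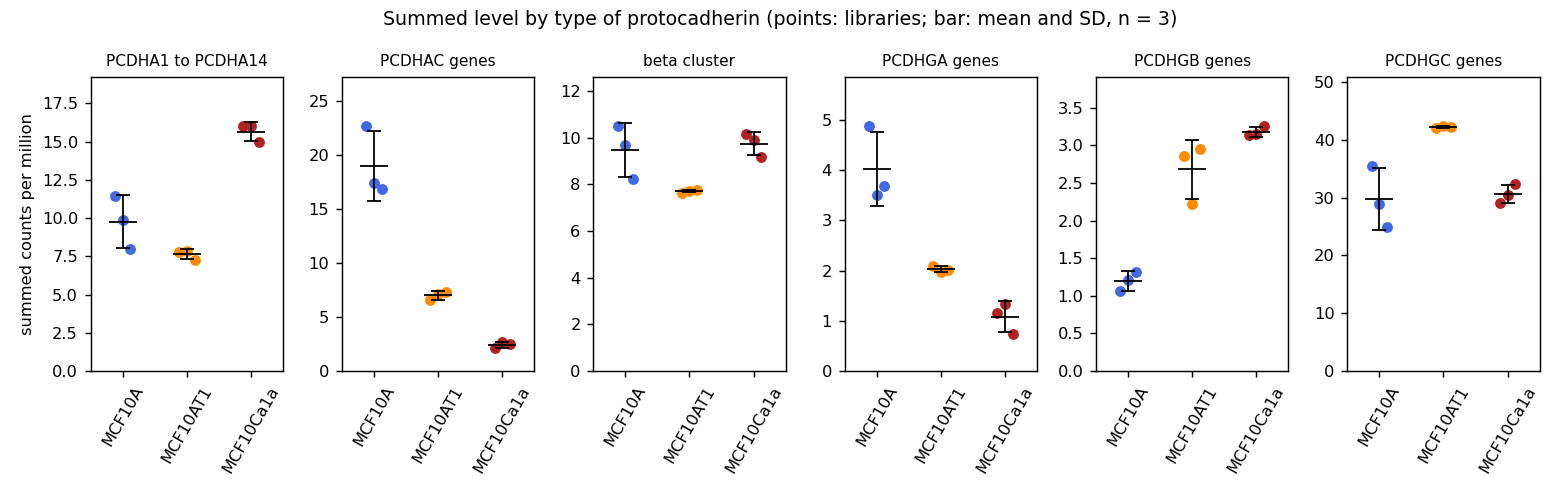
Summed CPM of each type of clustered protocadherin by line, with points for libraries and a bar for mean and SD (n = 3). PCDHAC and PCDHGA sums step down from MCF10A to MCF10Ca1a, PCDHGB sums are lowest in MCF10A, and PCDHGC sums are highest in MCF10AT1.

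The leading alpha and beta members changed while PCDHGC3 led the gamma cluster in all 3 lines. By share of TPM, PCDHAC2 led alpha in MCF10A with 43.3% ± 9.33 (SD, n = 3), PCDHAC1 in MCF10AT1 with 32.3% ± 1.20 and PCDHA12 in MCF10Ca1a with 44.2% ± 1.56. In MCF10A replicates 1 and 3 a short form of PCDHAC2, ENST00000673410, held 3.028 and 2.4 TPM. Its longer ENST00000289269 had 3.089 and 1.918 TPM there, against 3.126 and 2.055 for PCDHAC1, so the size of the lead depended on the short form. By share of counts, PCDHAC2 led in MCF10A (41.1% ± 3.0) and PCDHA12 in MCF10Ca1a (57.7% ± 1.3). In MCF10AT1 PCDHA12 had 29.4% ± 1.62 of counts and PCDHAC1 28.3% ± 0.971, so the leader changed with the unit. In MCF10Ca1a PCDHAC1 held 2.23% ± 0.457 of alpha TPM and PCDHAC2 29.6% ± 2.90, while PCDHAC2 held 11% ± 1.56 of alpha CPM there. In the beta cluster, PCDHB14 had 23.4% ± 0.585 and PCDHB2 21.5% ± 1.35 in MCF10A, which differed by about their spread. PCDHB2 led in MCF10AT1 with 33.4% ± 2.40 and in MCF10Ca1a with 44.9% ± 8.18. PCDHB16 made up 20.2% ± 1.92 of beta TPM in MCF10A, 0.593% ± 0.337 in MCF10AT1 and 3.72% ± 1.29 in MCF10Ca1a. PCDHGC3 held 83.6% ± 1.47, 89.1% ± 0.890 and 86.9% ± 1.87 of gamma TPM.

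**Figure D3:**
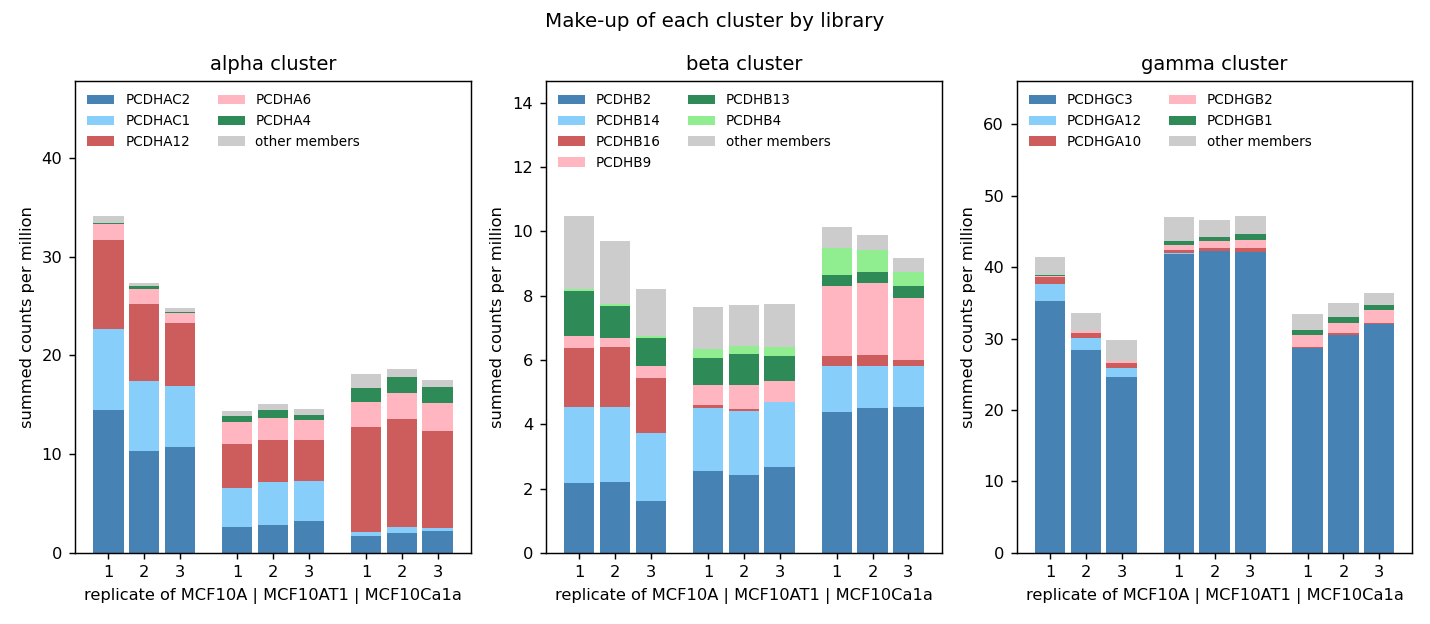
Summed CPM of each cluster in the 9 libraries, stacked by leading members. By CPM, PCDHAC1 and PCDHAC2 fill most of the alpha bar in MCF10A and little of it in MCF10Ca1a, and PCDHB16 takes a large share of the beta bar in MCF10A and a small one in the other lines.

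Single members were tested with edgeR's quasi-likelihood test on all 17910 genes that passed the filter on low counts, and a change was called at a Benjamini-Hochberg adjusted p under 0.05. The filter kept 32 members, 7 alpha, 10 beta and 15 gamma, and left 22 untested. Of the 32, 10 reached the count minimum in all 3 libraries of 1 line only, so a difference was built into their selection, and counts of calls over the 32 support nothing by themselves. These were PCDHB5, PCDHGA1, PCDHGA12, PCDHGB5 and PCDHGC5 through MCF10A, PCDHB11, PCDHGA5 and PCDHGA9 through MCF10AT1, and PCDHA10 and PCDHGB3 through MCF10Ca1a. Their values and fitted changes are given below as descriptions, with no p-value. In MCF10AT1 against MCF10A, 24 of the 32 were called, 13 higher and 11 lower, against 61.6% of all genes tested, 29.8% higher and 31.8% lower. In MCF10Ca1a against MCF10A, 25 were called, 11 higher and 14 lower, against 80.9% of all genes, 39.0% higher and 41.9% lower. In MCF10Ca1a against MCF10AT1, 22 were called, 9 higher and 13 lower, against 78.4% of all genes, 38.0% higher and 40.3% lower. The last pair of comparisons share MCF10Ca1a and the first pair share MCF10A. The lines differed at most genes, so a called change was not particular to these members. The median fitted log2 change of the 32 was 0.378, -0.354 and -0.394 in the order given, against -0.00383, -0.0465 and -0.0441 over all genes. With members at the floor of a line set to their lower bound, and those at the floor of both lines left out, it was 0.378, -0.181 and -0.188. With limma on log2(TPM + 1), whose pseudocount is above the level of most members, calls of PCDHA6, PCDHB2, PCDHB4, PCDHB9, PCDHGA1, PCDHGA7, PCDHGA6, PCDHGB3 and PCDHGC5 were lost in MCF10AT1 against MCF10A, and PCDHB14 and PCDHGA10 became calls. Those of PCDHA10, PCDHGA6, PCDHGA9 and PCDHGC5 were lost in MCF10Ca1a against MCF10A, and those of PCDHA10, PCDHB10, PCDHB11, PCDHB14, PCDHGA1, PCDHGA5, PCDHGA11, PCDHGB5 and PCDHGC3 in MCF10Ca1a against MCF10AT1, where PCDHA6 became a call and PCDHAC2 changed sign.

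By cluster, MCF10AT1 against MCF10A had 2 alpha members higher and 3 lower, 4 beta higher and 3 lower, and 7 gamma higher and 5 lower. MCF10Ca1a against MCF10A had 4 alpha members higher and 2 lower, 3 beta higher and 6 lower, and 4 gamma higher and 6 lower. MCF10Ca1a against MCF10AT1 had 3 alpha higher and 2 lower, 4 beta higher and 5 lower, and 2 gamma higher and 6 lower. Every cluster held members called in both directions in each comparison, beside 29.8% to 39.0% of all genes called higher and 31.8% to 41.9% called lower. These counts include the members with a difference built into their selection, so they support nothing by themselves. The gamma members called higher in MCF10Ca1a than in MCF10AT1 include PCDHGB5, which was at the floor of both lines.

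**Figure D4:**
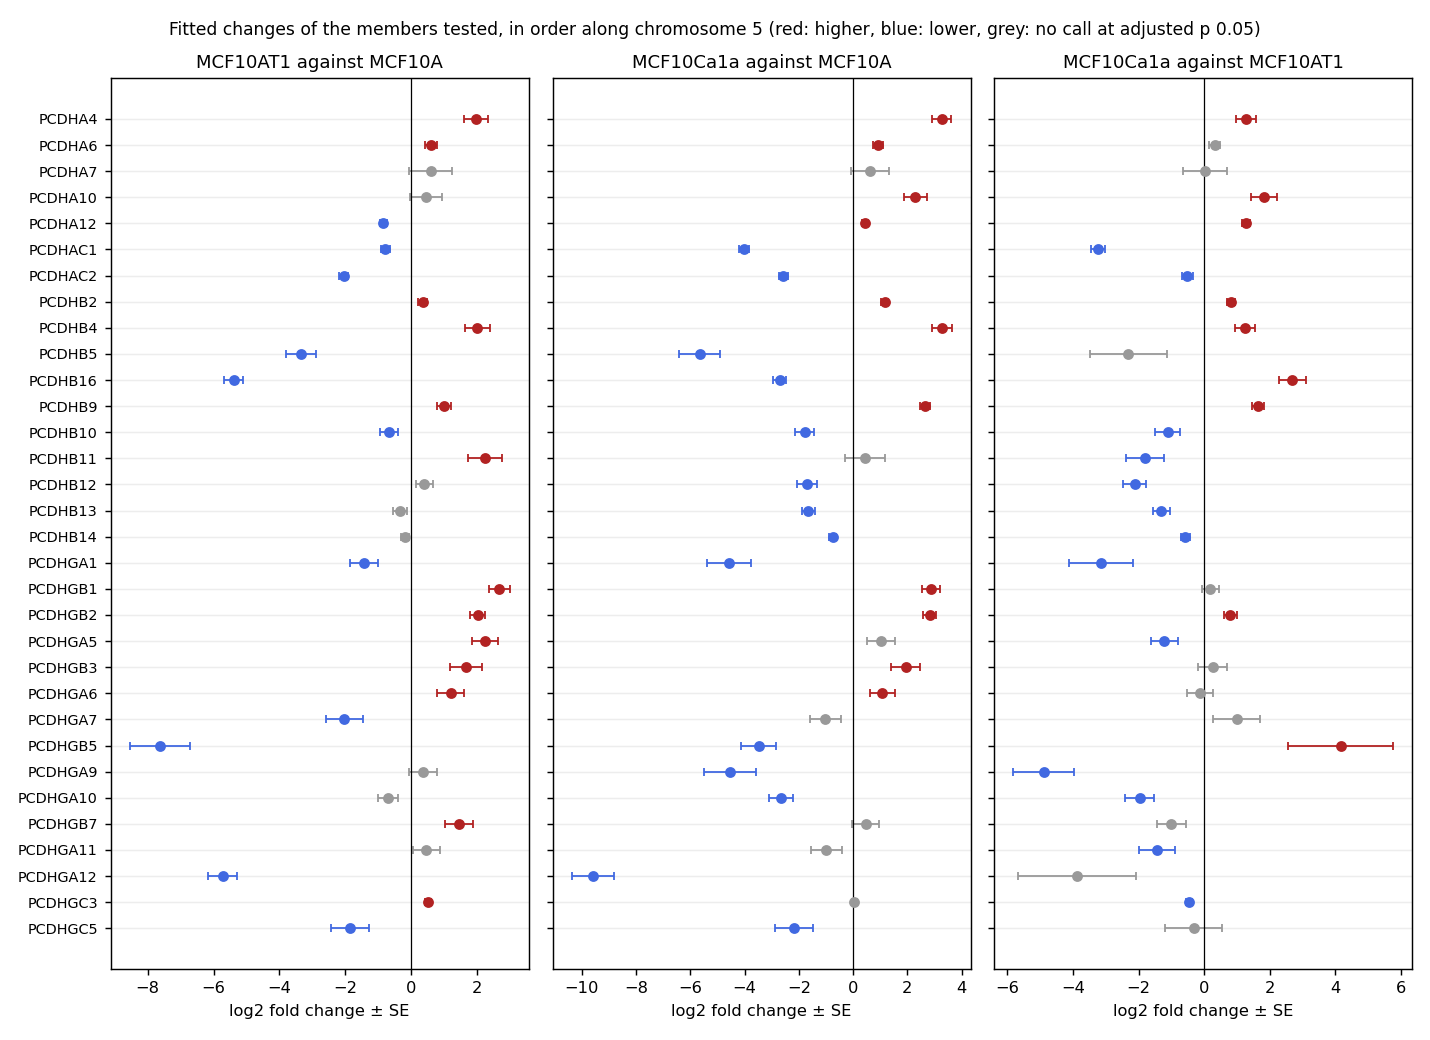
Fitted log2 fold change and standard error of the 32 members tested, in order along chromosome 5, for the 3 comparisons, with calls in red (higher) and blue (lower). Members at or near 0 counts, such as PCDHGA12 and PCDHGB5, have fitted values that depend on the prior count and are no bound.

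Among the alpha genes, the 2 C-type members fell and PCDHA4, PCDHA6, PCDHA10 and PCDHA12 rose in MCF10Ca1a against MCF10A. PCDHAC1 (ENSG00000248383.5) had 8.22, 7.14 and 6.14 CPM in the MCF10A libraries, 3.92, 4.40 and 4.13 in MCF10AT1 and 0.391, 0.637 and 0.310 in MCF10Ca1a. Each line lay below the one before it without overlap. The fitted log2 change was -0.79 ± 0.131 (SE) in MCF10AT1 against MCF10A (edgeR, adjusted p = 0.000142), -4.02 ± 0.195 in MCF10Ca1a against MCF10A (adjusted p = 1.67e-10) and -3.24 ± 0.202 in MCF10Ca1a against MCF10AT1 (adjusted p = 3.37e-09). In 8 of 9 libraries most PCDHAC1 counts were assigned to ENST00000409700, a form without the constant exons, with 425.8, 280.1 and 345.4 counts in the MCF10A libraries, 183.8, 204.2 and 167.9 in MCF10AT1 and 14, 4.6 and 11 in MCF10Ca1a. ENST00000253807, joined to the constant exons, had 101.5, 182.3 and 83.2, then 77.7, 87.6 and 88.4, then 0, 16.8 and 0, so it held most counts of MCF10Ca1a replicate 2.

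PCDHAC2 (ENSG00000243232.6) had 14.5, 10.3 and 10.7 CPM in the MCF10A libraries, 2.64, 2.77 and 3.18 in MCF10AT1 and 1.74, 2.02 and 2.22 in MCF10Ca1a. All MCF10A libraries lay far above the other lines, and MCF10Ca1a lay just below MCF10AT1. The log2 change was -2.05 ± 0.136 in MCF10AT1 (edgeR, adjusted p = 1.76e-08) and -2.57 ± 0.153 in MCF10Ca1a (adjusted p = 1.65e-09), both against MCF10A. In MCF10Ca1a against MCF10AT1 it was -0.52 ± 0.167 (adjusted p = 0.0117), and this call was lost without MCF10Ca1a replicate 1 (-0.43). It also turned direction with the unit, to 1.46 with length-scaled counts, 1.48 with scaled counts and 0.95 with limma on log2(TPM + 1). The transcripts show where the units part. In MCF10AT1 all PCDHAC2 counts, 176.3, 183.3 and 197.5, were assigned to ENST00000289269, which has 5963 bases. In MCF10Ca1a 62.4, 67.8 and 77.3 counts were assigned to ENST00000673410, which GENCODE 29 does not list and whose effective length was 0.243 and 0.245 of the other's in the 2 libraries that allow the ratio. MCF10A replicates 1 and 3 had both, with 179.5 and 174.3 counts on the shorter form, and MCF10A replicate 2 had 0. A shorter form raises TPM at the same number of reads, so the higher TPM of MCF10Ca1a rests on this assignment, whose uncertainty the tables do not give. In MCF10Ca1a ENST00000289269 had 0, 0 and 1.4 counts, so nearly the whole gene level there lay on the shorter form. The gene count is the sum over the forms and does not depend on the split between them. It still depends on how reads of the alpha constant exons were split between members.

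**Figure D5:**
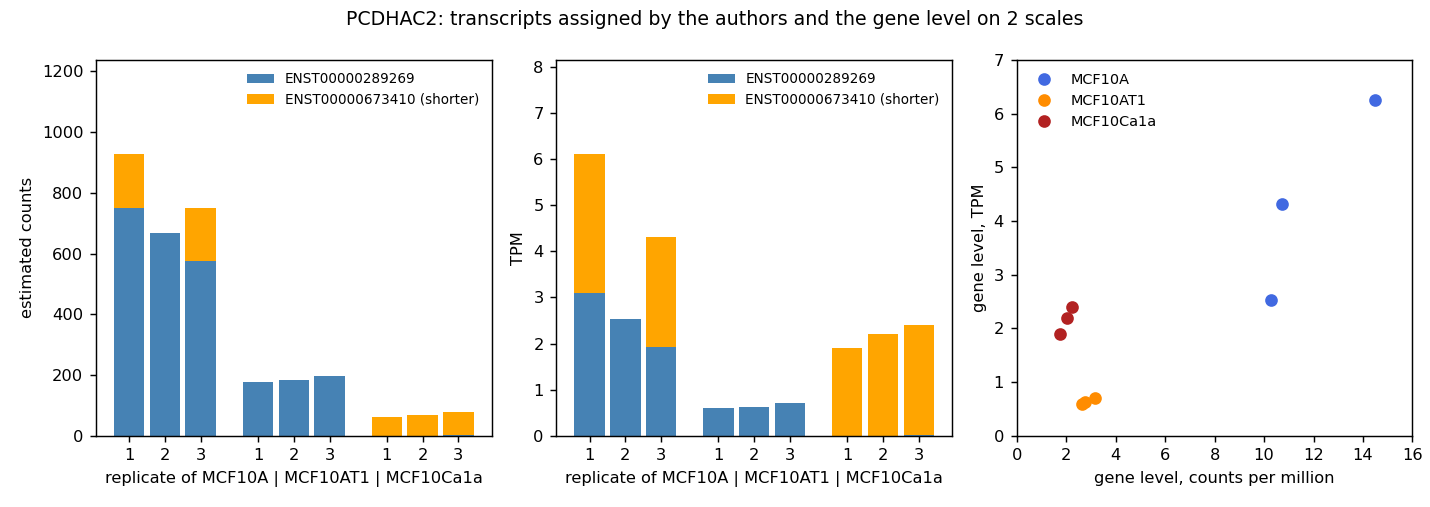
PCDHAC2 transcripts by library in estimated counts (left) and TPM (middle), and the gene level in CPM against TPM (right, points coloured by line). MCF10Ca1a lies below MCF10AT1 in counts and above it in TPM, with its reads on the shorter ENST00000673410.

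PCDHA12 (ENSG00000251664.5), the most abundant other alpha gene, had 8.94, 7.78 and 6.45 CPM in the MCF10A libraries, 4.48, 4.25 and 4.16 in MCF10AT1 and 10.6, 10.9 and 9.82 in MCF10Ca1a. The lines did not overlap, with MCF10AT1 lowest and MCF10Ca1a highest. Its log2 change was -0.84 ± 0.109 in MCF10AT1 (edgeR, adjusted p = 1.44e-05) and 0.43 ± 0.107 in MCF10Ca1a (adjusted p = 0.00191) against MCF10A, and 1.28 ± 0.111 between the derivatives (adjusted p = 1.15e-07). PCDHA4 (ENSG00000204967.12) had 0.0936, 0.311 and 0.0930 CPM in the MCF10A libraries, 0.594, 0.817 and 0.492 in MCF10AT1 and 1.49, 1.59 and 1.64 in MCF10Ca1a. It rose at each step, by 1.97 ± 0.376 (adjusted p = 0.00045) and 1.29 ± 0.303 (adjusted p = 0.00147), and by 3.26 ± 0.363 overall (adjusted p = 1.42e-06). PCDHA6 had 1.71, 1.49 and 1.002 CPM in the MCF10A libraries, 2.18, 2.23 and 1.96 in MCF10AT1 and 2.51, 2.65 and 2.78 in MCF10Ca1a. Its rise of 0.60 ± 0.171 in MCF10AT1 (adjusted p = 0.00746) was lost with length-scaled counts (0.13), scaled counts (0.12) and limma on TPM (0.0019 and 0.015), and that of 0.92 ± 0.176 in MCF10Ca1a (adjusted p = 0.000258) with scaled counts (0.42). PCDHA10 had 0.0786, 0.111 and 0.0290 CPM in the MCF10A libraries, 0.0907, 0.0907 and 0.113 in MCF10AT1 and 0.428, 0.327 and 0.303 in MCF10Ca1a. It was higher in MCF10Ca1a by a fitted 2.28 ± 0.426 against MCF10A, a call lost with length-scaled counts (0.89) and limma on TPM.

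In the beta cluster, PCDHB2, PCDHB4 and PCDHB9 rose and PCDHB5, PCDHB10, PCDHB12, PCDHB13, PCDHB14 and PCDHB16 fell in MCF10Ca1a against MCF10A. Of the 10 tested, 9 were thus called, near the share of 80.9% of all genes. PCDHB5, among the 9, passed the filter through MCF10A only. PCDHB16 (ENSG00000272674.4) had 1.86, 1.88 and 1.70 CPM in the MCF10A libraries, 0.0671, 0.0471 and 0.0161 in MCF10AT1 and 0.307, 0.340 and 0.189 in MCF10Ca1a. The lines did not overlap, and MCF10AT1, with 4.5, 3.1 and 1.0 counts, was lowest. The log2 change was -5.39 ± 0.299 in MCF10AT1 (edgeR, adjusted p = 2.8e-09) and -2.70 ± 0.245 in MCF10Ca1a (adjusted p = 1.56e-07) against MCF10A, and 2.69 ± 0.418 from MCF10AT1 to MCF10Ca1a (adjusted p = 4.36e-05). PCDHB5 had 46.0, 42.4 and 29.3 counts in the MCF10A libraries, 7.1, 3.0 and 1.0 in MCF10AT1 and 0, 1.0 and 0 in MCF10Ca1a. MCF10Ca1a held 1 count in all, and the depth-scaled ratio of MCF10A to it was 62.5, with a counting interval at 95% (exact) of 11 to 2488. In MCF10AT1, which was above the floor, the fitted log2 change against MCF10A was -3.34 ± 0.465.

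PCDHB9 (ENSG00000177839.7) rose at both steps, with 0.351, 0.276 and 0.383 CPM in the MCF10A libraries, 0.626, 0.761 and 0.647 in MCF10AT1 and 2.18, 2.25 and 1.94 in MCF10Ca1a. Against MCF10A its log2 change was 1.002 ± 0.202 in MCF10AT1 (edgeR, adjusted p = 0.000697) and 2.65 ± 0.192 in MCF10Ca1a (adjusted p = 1.35e-08), and from MCF10AT1 to MCF10Ca1a it was 1.65 ± 0.177 (adjusted p = 1.02e-06). The call in MCF10AT1 was lost with scaled counts (1.10) and with limma on TPM (0.19 and 0.70). PCDHB4 had 0.0630, 0.0784 and 0.0573 CPM in the MCF10A libraries, 0.291, 0.258 and 0.274 in MCF10AT1 and 0.843, 0.687 and 0.426 in MCF10Ca1a, a rise of 2.02 ± 0.382 and then of 1.25 ± 0.293 without overlap (adjusted p = 0.000421 and 0.00145). PCDHB2 had 2.18, 2.20 and 1.61 CPM in the MCF10A libraries, 2.54, 2.41 and 2.66 in MCF10AT1 and 4.38, 4.50 and 4.54 in MCF10Ca1a. It was highest in MCF10Ca1a, by 1.17 ± 0.132 against MCF10A (adjusted p = 1.62e-06). Its change in MCF10AT1 of 0.35 ± 0.131 (adjusted p = 0.0329) was lost with 7 of the alternatives and without MCF10A replicate 3 (0.21), MCF10AT1 replicate 1 (0.35) or MCF10AT1 replicate 3 (0.32).

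PCDHB10, PCDHB11, PCDHB12, PCDHB13 and PCDHB14 lie next to each other. PCDHB13 had 1.40, 0.980 and 0.868 CPM in the MCF10A libraries, 0.836, 0.956 and 0.767 in MCF10AT1 and 0.330, 0.327 and 0.369 in MCF10Ca1a. It was lower in MCF10Ca1a by 1.65 ± 0.252 on the log2 scale against MCF10A (adjusted p = 3.43e-05) and not called in MCF10AT1. PCDHB12 was lower in MCF10Ca1a against MCF10AT1 by 2.12 ± 0.357 on that scale (adjusted p = 9.35e-05), with 0.360, 0.455 and 0.449 CPM against 0.0916, 0.109 and 0.0846. PCDHB10 had 0.671, 0.531 and 0.398 CPM in the MCF10A libraries, 0.413, 0.281 and 0.297 in MCF10AT1 and 0.175, 0.174 and 0.124 in MCF10Ca1a. Its fall in MCF10AT1 (-0.67 ± 0.272, adjusted p = 0.0468) was lost in most alternatives and its libraries overlapped those of MCF10A. PCDHB11 was highest in MCF10AT1, with 0.185, 0.351 and 0.290 CPM against 0.0781, 0.0775 and 0.0144 in MCF10A and 0.141, 0.0336 and 0.0567 in MCF10Ca1a. The fitted log2 change was 2.25 ± 0.518 against MCF10A, and the call of its lower level in MCF10Ca1a (-1.81 ± 0.574) was lost without MCF10Ca1a replicate 2 (-1.45). PCDHB14, with 2.35, 2.33 and 2.13 CPM in the MCF10A libraries, 1.98, 2.01 and 2.03 in MCF10AT1 and 1.44, 1.32 and 1.28 in MCF10Ca1a, fell by 0.76 ± 0.131 on the log2 scale against MCF10A (adjusted p = 0.000107). PCDHB1, the first beta gene, was at 1.0, 1.0 and 0 counts in MCF10A and at 0 in the other lines.

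PCDHGC3 (ENSG00000240184.7), a C-type member whose cytoplasmic domain is known to bind the scaffold protein AXIN1, was the most abundant clustered protocadherin. It had 35.2, 28.4 and 24.6 CPM in the MCF10A libraries, 41.9, 42.2 and 42.1 in MCF10AT1 and 28.7, 30.5 and 32.1 in MCF10Ca1a. MCF10AT1 lay above both other lines, which overlapped. The log2 change was 0.52 ± 0.0959 in MCF10AT1 (edgeR, adjusted p = 0.000358), 0.049 ± 0.0998 in MCF10Ca1a against MCF10A (adjusted p = 0.659) and -0.47 ± 0.0988 in MCF10Ca1a against MCF10AT1 (adjusted p = 0.000639). The last was lost with limma on log2(TPM + 1) (-0.28) and log2(TPM + 0.1) (-0.30), and the rise in MCF10AT1 with limma on log2(TPM + 1) without a filter (0.39). Without MCF10A replicate 1 the second became a rise (0.19). Most of its counts were assigned to ENST00000308177, joined to the constant exons, with 926.0 to 2339.4 per library. PCDHGC5 had 0.172, 0.406 and 0.224 CPM in the MCF10A libraries, 0.0300, 0.101 and 0.0813 in MCF10AT1 and 0.142, 0 and 0.0406 in MCF10Ca1a. Its fitted changes against MCF10A were -1.86 ± 0.572 and -2.18 ± 0.706 on the log2 scale, and their calls were lost without MCF10A replicate 2 (-1.46 and -1.79), without MCF10AT1 replicate 1 (-1.49) and without MCF10Ca1a replicate 3 (-1.87). PCDHGC4 was not tested, with 0 to 9.1 counts.

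Of the PCDHGA genes, PCDHGA12 was the second most abundant gamma member of MCF10A by TPM, with 2.41, 1.64 and 1.21 CPM. In MCF10AT1 it had 3.0, 1.0 and 2.0 counts and in MCF10Ca1a 0 in all 3 libraries. MCF10A held 345 counts against 6 in MCF10AT1, a depth-scaled ratio of 56.5 with a 95% counting interval of 25.7 to 155, and was at least 20.4-fold higher than MCF10Ca1a by the floor of 3 counts per library. PCDHGA10 had 0.961, 0.750 and 0.678 CPM in the MCF10A libraries, 0.466, 0.446 and 0.572 in MCF10AT1 and 0.0419, 0.274 and 0.0946 in MCF10Ca1a. It fell in MCF10Ca1a against MCF10A by 2.66 ± 0.429 on the log2 scale (adjusted p = 5.67e-05). In MCF10AT1 against MCF10A, whose libraries did not overlap, it was not called (-0.69 ± 0.302, adjusted p = 0.0615) and became a call in 8 alternatives, with length-scaled counts (-0.97, adjusted p = 0.0249) and these lines alone (-0.66, adjusted p = 0.019) among them. PCDHGA1 and PCDHGA9 were each at 1.5, 0 and 0 counts in MCF10Ca1a. MCF10A held 55 counts of either gene against 2, a ratio of 14.6 with a counting interval of 3.84 to 123, and MCF10AT1 held 20 of PCDHGA1 and 69 of PCDHGA9. The fitted change of PCDHGA1 in MCF10AT1 against MCF10A was -1.42 ± 0.428, a call lost with DESeq2 (-1.46) and without MCF10A replicate 1 (-1.01). PCDHGA2 was not tested but had 11, 6 and 17.8 counts in the MCF10A libraries, 0, 1.4 and 0 in MCF10AT1 and 0 in MCF10Ca1a. It is named after its values were seen. PCDHGA5 was highest in MCF10AT1, with 0.210, 0.287 and 0.242 CPM against 0.0624, 0.0464 and 0.0430 in MCF10A, a fitted change of 2.24 ± 0.394, and the call of its lower level in MCF10Ca1a (-1.21 ± 0.4) was lost with DESeq2 (-1.18) and without MCF10Ca1a replicate 1 (-1.07) or 3 (-1.08). PCDHGA7 fell in MCF10AT1, with 0.0750, 0.0453 and 0.0483 CPM against 0.319, 0.124 and 0.279 (-2.02 ± 0.561, adjusted p = 0.00652).

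PCDHGB1 and PCDHGB2 rose in both derivatives. PCDHGB1 had 0.126, 0.0773 and 0.1003 CPM in the MCF10A libraries, 0.573, 0.543 and 0.869 in MCF10AT1 and 0.636, 0.875 and 0.755 in MCF10Ca1a. The derivatives overlapped and both lay above MCF10A, by 2.68 ± 0.310 (adjusted p = 4.97e-06) and 2.88 ± 0.324 (adjusted p = 1.59e-06) on the log2 scale. PCDHGB2 had 0.195, 0.228 and 0.266 CPM in the MCF10A libraries, 0.750, 1.04 and 1.13 in MCF10AT1 and 1.79, 1.49 and 1.77 in MCF10Ca1a, a step up at each line by 2.03 ± 0.230 (adjusted p = 4.18e-06) and 0.79 ± 0.195 (adjusted p = 0.002), the latter lost with scaled counts (0.59). PCDHGB3 had 0.142, 0.0794 and 0.0287 CPM in the MCF10A libraries, 0.299, 0.136 and 0.358 in MCF10AT1 and 0.252, 0.338 and 0.357 in MCF10Ca1a, so MCF10A and MCF10AT1 overlapped. Its fitted changes against MCF10A were 1.67 ± 0.492 and 1.93 ± 0.524, and the call of the first was lost without MCF10AT1 replicate 3 (1.41). PCDHGB5 (ENSG00000276547.2) ran against them, with 16, 31.5 and 41.3 counts in MCF10A, 0 in all 3 MCF10AT1 libraries and 1.6, 0 and 1.5 in MCF10Ca1a. It was at least 9.58-fold lower in MCF10AT1, and the ratio of MCF10A to MCF10Ca1a was 15.7 with a counting interval of 5.20 to 77.6. Its call as higher in MCF10Ca1a than in MCF10AT1 is between lines that are both at the floor, and was lost without any 1 of 5 libraries. Of the 4 tested members outside the naming rule, PCDHA7 was called in no comparison, and the other 3 had calls that were lost when single libraries were left out. PCDHGB7 had 0.320, 0.196 and 0.197 CPM in the MCF10A libraries, 1.17, 0.407 and 0.417 in MCF10AT1 and 0.417, 0.276 and 0.308 in MCF10Ca1a. Its call as higher in MCF10AT1 than in MCF10A (1.455 ± 0.412, adjusted p = 0.00748) was lost without MCF10AT1 replicate 1 (0.77, adjusted p = 0.0692). In MCF10Ca1a against MCF10AT1 it was not called (-0.998, adjusted p = 0.0518) and became a call in 8 alternatives, with no filter on low counts (-1.08, adjusted p = 0.00288) and length-scaled counts (-1.32, adjusted p = 0.00736) among them. PCDHGA6 overlapped between MCF10A and both derivatives. Its call as higher in MCF10AT1 (1.20, adjusted p = 0.0208) was lost without MCF10A replicate 1 (0.95) or 2 (0.90) and without MCF10AT1 replicate 1 (1.17) or 3 (1.06). That in MCF10Ca1a (1.08, adjusted p = 0.0413) was lost without any 1 of those 4 libraries (0.759 to 1.065), MCF10AT1 replicate 2 (1.06) or MCF10Ca1a replicate 1 (0.94) or 2 (1.01). PCDHGA11 was called lower in MCF10Ca1a than in MCF10AT1 (-1.44, adjusted p = 0.0296), a call lost with DESeq2 (-1.43) and without MCF10AT1 replicate 1 (-1.43) or 3 (-1.44) or MCF10Ca1a replicate 2 (-1.47) or 3 (-1.12).

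Lists of genes linked to the clusters, chosen with these data known, are described by counts. Of all genes tested, 29.8% were higher and 31.8% lower in MCF10AT1 against MCF10A, 39.0% and 41.9% in MCF10Ca1a against MCF10A, and 38.0% and 40.3% in MCF10Ca1a against MCF10AT1, and the counts of every list are to be read against these shares. Of 33 regulators of protocadherin promoter choice and silencing, 9 were higher and 17 lower in MCF10Ca1a against MCF10A, with a median log2 change of -0.235, and 7 were higher and 22 lower in MCF10AT1, with a median of -0.309. In MCF10Ca1a against MCF10AT1, 12 were higher and 14 lower, with a median of 0.0701. CTCF, which binds these promoters, was at 73.2 ± 6.66, 55.4 ± 2.43 and 54.0 ± 0.488 CPM (SD, n = 3) in MCF10A, MCF10AT1 and MCF10Ca1a, lower by 0.44 ± 0.064 on the log2 scale in MCF10Ca1a (adjusted p = 2.25e-05). The cohesin subunit RAD21 was at 609 ± 18, 391 ± 22 and 155 ± 2.62 CPM, lower by 1.97 ± 0.059 on the log2 scale in MCF10Ca1a (adjusted p = 1.2e-12). DNMT3B, a de novo DNA methyltransferase, was at 5.79 ± 0.316, 2.07 ± 0.0835 and 0.0766 ± 0.018 CPM. It had 8 counts in the 3 MCF10Ca1a libraries together against 1150 in MCF10A, a depth-scaled ratio of 76.1 with a counting interval of 38.5 to 177. LRIF1, a partner of SMCHD1, rose most, by 2.52 ± 0.064 (adjusted p = 2.75e-13), and SMCHD1 itself was not called in MCF10Ca1a against MCF10A (-0.14 ± 0.068, adjusted p = 0.0764). SETDB1 was lower in MCF10AT1 by 0.605 ± 0.056 on the log2 scale (adjusted p = 5.13e-07) and not called in MCF10Ca1a against MCF10A, and the cohesin release factor WAPL missed the threshold in all 3 comparisons. In MCF10Ca1a against MCF10AT1 its edgeR change of 0.14 (adjusted p = 0.0544) became a call in 9 alternatives, with adjusted p from 0.00137 (edgeR, these lines alone) to 0.0407 (edgeR, without MCF10A replicate 3), DESeq2 (0.0119) and limma on log2(TPM + 1) (0.00542) among them. In MCF10AT1 against MCF10A it was called without MCF10A replicate 3 (-0.19, adjusted p = 0.0138) and with limma on log2(TPM + 0.1) (-0.25, adjusted p = 0.0478). SMCHD1 was called in MCF10Ca1a against MCF10A with no filter on low counts (-0.21, adjusted p = 0.00194) and without MCF10A replicate 3 (-0.21, adjusted p = 0.00725).

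Of 19 protocadherins and related cadherins outside the clusters, 11 were tested. In MCF10Ca1a against MCF10A 4 rose and 7 fell, with a median of -2.18, in MCF10AT1 against MCF10A 1 rose and 8 fell, with a median of -1.16, and in MCF10Ca1a against MCF10AT1 4 rose and 5 fell. There the median was -0.415 over the 9 genes above the floor of at least 1 line, and PCDH18 and PCDH20, at the floor of both lines, were left out. PCDH15 rose most in MCF10Ca1a against MCF10A, by a fitted 3.01 ± 0.33. It reached the count minimum in all libraries of MCF10Ca1a and of no other line, so a difference was built into its selection. PCDH18, which passed through MCF10A in the same way, had 45, 29 and 46 counts in MCF10A and 0 in both derivatives. It was at least 7.02-fold lower in MCF10Ca1a. Of 22 partners of the cytoplasmic domains, 7 rose and 10 fell in MCF10Ca1a against MCF10A (median -0.153), 7 rose and 11 fell in MCF10AT1 (median -0.102), and 9 rose and 10 fell in MCF10Ca1a against MCF10AT1 (median -0.0563). In MCF10Ca1a against MCF10A the largest called rise in the list was WASF2, by 1.05 ± 0.072 (adjusted p = 6.78e-09), and the largest called fall was CYFIP2, lower by 4.46 ± 0.11 on the log2 scale (adjusted p = 2.02e-13). Both encode parts of the WAVE complex, an actin regulator that clustered protocadherins bind. The kinase FYN, outside that complex, was lower by 3.28 ± 0.19 on the log2 scale (adjusted p = 9.72e-10) and is named after its value was seen. Of 27 neighbours on 5q31, 26 were tested, with 10 higher and 11 lower in MCF10Ca1a against MCF10A (median -0.0757), 7 and 13 in MCF10AT1 (median -0.0892) and 10 and 10 in MCF10Ca1a against MCF10AT1 (median 0.0967). TAF7, which lies between the beta and gamma clusters, was at 118 ± 8.02, 116 ± 5.24 and 89.9 ± 4.85 CPM, lower by 0.39 ± 0.063 on the log2 scale in MCF10Ca1a (adjusted p = 5.93e-05), while its neighbour SLC25A2 was at or under 2 counts. PCDH1 rose most of the neighbours, from 38.3 ± 6.15 to 229 ± 8.43 CPM, and CD14 fell most, from 9.16 ± 0.486 to 0.208 ± 0.115 CPM.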

How the data were processed

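Poly-A RNA of 9 libraries was sequenced with a stranded Illumina mRNA kit, per the labels' protocols. Salmon and hg38 are named without versions in the submitters' processing notes. The annotation behind the tables is not given in the sources used here. The deposited tables hold estimated counts per gene and transcript, gene counts that the file names call length-scaled and scaled, and TPM per gene and transcript, all made by the authors.

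Estimated counts were rounded and filtered with filterByExpr (minimum count 10, minimum total 15, about 0.156 CPM), which left 17910 genes. The edgeR quasi-likelihood test (edgeR 4.0.16, R 4.3.3) with TMM and line as the only term was fitted to all 9 libraries. Standard errors came from the log2 change and its F statistic. A line was at the floor where all 3 of its libraries had 3 counts or fewer, and intervals and floors reflect counting error alone, as PCR copies were not removed by molecular identifiers. DESeq2 1.42.0, limma 3.58.1 on log2(TPM + 1) and log2(TPM + 0.1), other counts and filters, the replicate block and left-out libraries were alternatives, and thinning to the smallest library was added after seeing the data. The tests were checked on simulated data. Positions and transcript forms came from GENCODE 29. Members named with values were, per cluster, the 4 with the highest mean TPM, the 3 largest called rises and falls per comparison, and the C-type genes and PCDHB1. From the lists, 8 genes of interest and the largest called rise and fall in MCF10Ca1a against MCF10A were named. Members and lists were chosen with earlier results of these data known. A marker of the immune list is not reported here.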

Additional observations from a re-analysis of the deposited data

How the results depend on the processing

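The number of members called held within 1.5 times under most alternatives. It was lower with scaled counts, where 19 members passed the filter, at 11 in MCF10AT1 against MCF10A and 14 in MCF10Ca1a against MCF10AT1, and with limma on log2(TPM + 1) at 14 in the latter. Thinning every library to the smallest gave 16, 22 and 17 members, in the order below, and lower calls in MCF10AT1 against MCF10A went from 11 to 6. Leaving out each library in turn gave 21 to 25, 25 to 27 and 18 to 25 members, in the order MCF10AT1 and MCF10Ca1a against MCF10A and MCF10Ca1a against MCF10AT1. Same-numbered libraries did not deviate together (correlations of -0.0597 to 0.0451), and 1 of 9 libraries correlated best with its own number. With the replicate number as a block 24, 25 and 23 members were called, and 10846, 14397 and 13917 of all genes.

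Cluster ratios on the log2 scale moved beyond the spread of replicates as follows. On summed TPM, alpha was -1.32, -0.43 and 0.90, beta -0.49, 0.30 and 0.79, and gamma -0.27 in MCF10Ca1a against MCF10AT1. For alpha, length-scaled counts gave -0.49 in MCF10Ca1a against MCF10A, scaled counts -1.19 in MCF10AT1 against MCF10A, and MCF10Ca1a against MCF10AT1 was 0.35 with DESeq2 size factors, 0.63 length-scaled and 0.62 scaled. For MCF10Ca1a against MCF10AT1, beta was 0.42 length-scaled and 0.50 scaled, and gamma -0.38 with DESeq2 size factors, -0.56 length-scaled and -0.56 scaled. Left-out libraries gave -1.07 to -0.83, -0.78 to -0.54 and 0.27 to 0.33 for alpha, -0.39 to -0.22, -0.065 to 0.11 and 0.31 to 0.38 for beta, and 0.32 to 0.56, -0.12 to 0.12 and -0.46 to -0.40 for gamma. PCDHAC2 in MCF10Ca1a against MCF10AT1 reversed to 1.46, 1.48, 0.95, 1.61 and 0.95 with length-scaled and scaled counts, limma on log2(TPM + 1), log2(TPM + 0.1) and log2(TPM + 1) without a filter, and the PCDHAC pair to 0.29 on summed TPM and 0.0043 scaled. The cause was not tested beyond the transcript assignment. Limma on log2(TPM + 0.1) shifted the all-gene median by -0.11, 0.10 and 0.21, and log2(TPM + 1) by 0.13 in MCF10Ca1a against MCF10AT1. MCF10Ca1a's lower depth limits members near the floor.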
